A study of Mus musculus with 18 samples.

Results

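The mitochondrially encoded genes are the genes of the circular mitochondrial chromosome, chrM. They were chosen as every gene that the deposited count table places on chrM, which gave 37 of 43430 genes: 13 protein-coding genes, 2 ribosomal RNA (rRNA) genes and 22 transfer RNA (tRNA) genes. They were measured by RNA-Seq of polyA RNA from myofibers, isolated by collagenase digestion and filtering from the quadriceps of C57BL/6 mice (C57BL/6J in the study's methods). The 18 libraries make up 6 groups of 3, males and females each treated with vehicle, weekly prednisone or daily prednisone. All animals were adults with no genetic change, and all were injected every day: daily animals received prednisone, a synthetic glucocorticoid, vehicle animals its DMSO carrier, and weekly animals prednisone on a single day of each week and the carrier on the rest. The replicates of a group are separate animals, per the study. The comparisons address how daily and weekly exposure differ in muscle, and whether males and females respond alike.

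Mitochondria keep a small genome of their own. Both of its strands are transcribed as long polycistronic RNAs by the RNA polymerase Polrmt with Tfam and Tfb2m, and tRNAs are cut out to release the transcripts between them. Most of the mature messenger RNAs (mRNAs) are polyadenylated. The mRNAs are translated on mitochondrial ribosomes, whose RNA comes from mt-Rnr1 and mt-Rnr2, into core subunits of the respiratory chain and the ATP synthase. All other subunits are encoded in the nucleus and imported. Skeletal muscle is rich in mitochondria, and glucocorticoids given every day are known to cause muscle atrophy. Nuclear chromosomes carry copies of pieces of mitochondrial DNA, which are not thought to be translated.

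Parts of these genes are repeated in nuclear copies, and sequences are therefore shown here from the GENCODE M21 transcripts on mm10. On chromosome 1, at chr1:24611535-24616197, lies a nuclear copy annotated as 7 pseudogenes on the minus strand. Its Gm28438 differs from mt-Nd3 over 345 aligned bases by the single substitution T3C, counted from 1 at the 5′ end of the gene with the mitochondrial base first. The starts of both are given with the differing base in capitals, mt-Nd3 from chrM:9459-9518 on the plus strand and Gm28438 from chr1:24613060-24613119 on the minus strand.
mt-Nd3: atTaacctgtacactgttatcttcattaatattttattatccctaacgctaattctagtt
Gm28438: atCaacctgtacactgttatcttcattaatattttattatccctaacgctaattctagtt
The copy of mt-Co2 on the same stretch, Gm28661, is identical over 681 aligned bases. The first bases of mt-Co2, chrM:7013-7072 on the plus strand, are therefore also those of the pseudogene.
mt-Co2: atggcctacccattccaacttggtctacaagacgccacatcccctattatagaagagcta

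mt-Co1 stands between such genes and those with no close copy. Its last part matches the chromosome 1 pseudogene Gm29216 over 483 bases with the single substitution A1066T, while the full-length copy Gm13340 on chromosome 2 is 97.6% identical, with 37 mismatches over 1545 bases. The stretch below shows where Gm13340 can be told apart and Gm29216 cannot, with the bases at which Gm13340 differs from mt-Co1 in capitals. It comes from chrM:6448-6507 on the plus strand, chr1:24616071-24616130 on the minus strand and chr2:22588468-22588527 on the minus strand.
mt-Co1: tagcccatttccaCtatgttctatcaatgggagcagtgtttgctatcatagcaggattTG
Gm29216: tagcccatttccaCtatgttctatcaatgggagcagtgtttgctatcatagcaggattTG
Gm13340: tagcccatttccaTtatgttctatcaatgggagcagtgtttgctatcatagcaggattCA

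Of the 13 mRNAs 5 were almost unseen in the table, and they were the genes whose sequence is repeated almost wholly without change in annotated nuclear transcripts. mt-Co2 and mt-Co3, subunits of cytochrome c oxidase (complex IV), had 37 to 159 and 24 to 76 counts over the 18 libraries. mt-Atp6, the membrane subunit of ATP synthase (complex V), had 86 to 206 counts. The complex I (NADH dehydrogenase) subunits mt-Nd3 and mt-Nd4l had 53 to 168 and 337 to 997 counts. By contrast mt-Co1, the catalytic subunit of complex IV and a product of the same strand, had 526790 to 1388328 counts and ranked between 1 and 3 among all genes in every library. Per kilobase of gene, the median CPM of mt-Co1 (counts per 1e6 counts, after TMM scaling) was 9204 times that of mt-Co3, 4305 times that of mt-Co2, 3032 times that of mt-Atp6, 1927 times that of mt-Nd3 and 315 times that of mt-Nd4l.

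Each gene was cut into all windows of 50 bases, and each window was looked for, on both strands, in the annotated nuclear transcripts. In the 5 genes with few counts, 100% of the windows of mt-Co2, 99.9% of mt-Co3, 99.5% of mt-Atp6, 98.8% of mt-Nd4l and 98.0% of mt-Nd3 were found there unchanged. In the other 10 mRNA and rRNA genes the share ran from 0.0% to 62.2%, and none of these had fewer than 8898 counts in any library. mt-Co1, at 51.1%, and mt-Nd4, a complex I subunit at 62.2%, still had 731 and 502 windows of their own. The 7 chromosome 1 pseudogenes had few counts as well, at 109 to 297 in all per library. Gm28437, the copy of mt-Co3, had the most, at 28 to 121 counts. How reads that match several places were treated is not given in the sources used here, and its part in these low counts was not tested. Unannotated nuclear sequence was not searched.

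**Figure D1:**
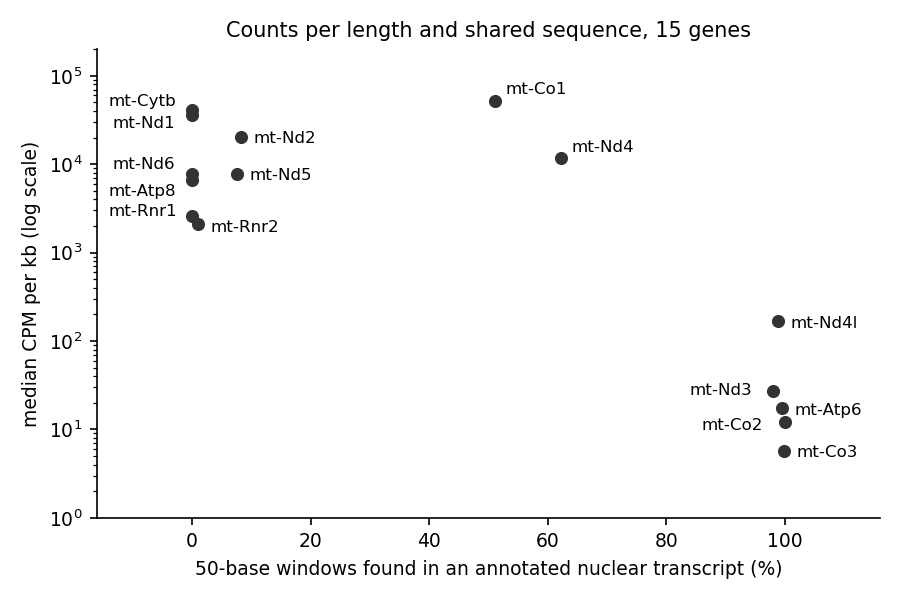
Median TMM-scaled CPM per kilobase over the 18 libraries (log axis) against the share of 50-base windows that are found unchanged in an annotated nuclear transcript, for the 13 mRNAs and 2 rRNAs, one point per gene. The 5 genes at 98.0% or above have a median of at most 167 CPM per kilobase, and the other 10 genes of at least 2126.

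Some mitochondrial genes also share bases with their neighbours. The last 43 bases of mt-Atp8, which encodes a small subunit of ATP synthase, are the start of mt-Atp6, as the capitals show in chrM:7907-7989 on the plus strand.
mt-Atp8/mt-Atp6: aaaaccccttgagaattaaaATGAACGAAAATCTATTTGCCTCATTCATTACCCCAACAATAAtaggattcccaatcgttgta
mt-Nd5 and mt-Nd6, both subunits of complex I, lie on opposite strands and overlap by 14 bases, in capitals within chrM:13532-13585 as read on the plus strand.
mt-Nd5/mt-Nd6: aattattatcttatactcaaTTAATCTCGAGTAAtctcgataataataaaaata
mt-Nd4l and mt-Nd4 overlap by 7 bases. Whether counting used the strand of the reads is not given in the sources used here, so reads from mt-Nd6, the only mRNA of the minus strand, and from plus-strand RNA that runs across it cannot be told apart.

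The mitochondrial genes took a large and variable share of each library. Library totals ran from 10506661 to 14686654 counts, and the 37 genes made up 11.7% to 36.4% of them, of which 96.4% to 98.1% came from the 13 mRNAs and 1.84% to 3.56% from the 2 rRNAs. The widest 95% Wilson interval of these shares spanned 0.057 percentage points and covers counting error only, so the spread between libraries is far larger than counting error. In males the share was 16.95%, 24.2% and 32.6% with vehicle, 27.6%, 25.6% and 26.1% with weekly prednisone, and 18.4%, 17.7% and 24.5% with daily prednisone. Each daily male library lay between the lowest and the highest vehicle male library, so those groups overlapped. In females the share was 23.5%, 21.1% and 26.3% with vehicle, 13.1%, 36.4% and 20.3% with weekly prednisone, and 11.7%, 18.3% and 14.2% with daily prednisone. Every daily female library lay below every vehicle female library, while the weekly female libraries held both the highest share of the study and its second lowest.

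The group means were 24.58% ± 7.85 (SD, n = 3) in vehicle males, 26.5% ± 1.01 in weekly males and 20.2% ± 3.73 in daily males. They were 23.6% ± 2.58 in vehicle females, 23.2% ± 11.9 in weekly females and 14.7% ± 3.34 in daily females. Daily minus vehicle was -4.38 percentage points in males, under the SD within those groups of 6.14, and -8.91 points in females, above their SD of 2.98. Without replicate 3 of the vehicle males, whose share was 32.6%, the male difference was -0.36 points, and without replicate 1 it was -8.19 points. In bulk RNA a lower share can come from less mitochondrial RNA per cell, fewer cells rich in it, or more of other RNA, and these cannot be told apart.

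**Figure D2:**
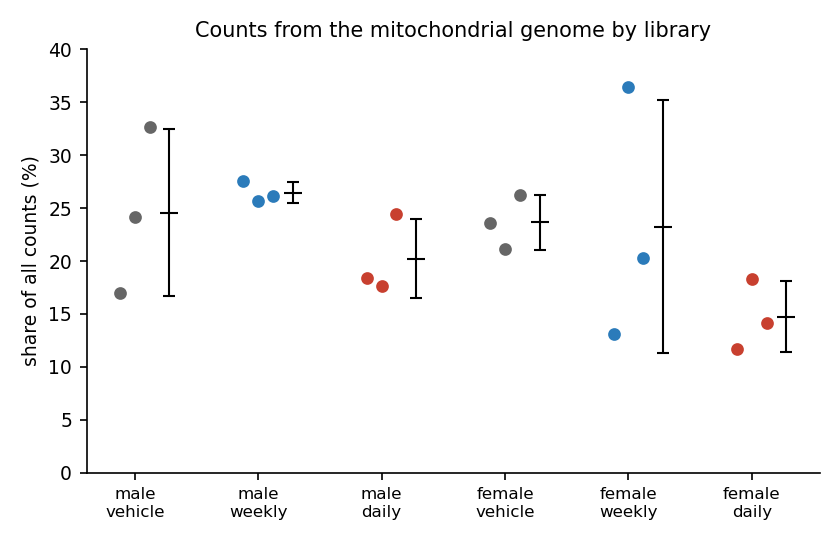
Share of all counts that fell on the 37 mitochondrial genes (%, y axis) in each of the 18 libraries, by sex and treatment. Points are libraries and bars are mean ± SD of 3. Daily females (11.7% to 18.3%) sit below vehicle females (21.1% to 26.3%), while daily and vehicle males overlap and weekly females spread from 13.1% to 36.4%.

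For each gene, groups were compared with edgeR's quasi-likelihood test on the counts, scaled by TMM (trimmed mean of M-values) factors, with Benjamini-Hochberg adjustment over the 13596 genes that passed a filter on low counts. Of the 37 members 16 were tested: the 13 mRNAs, both rRNAs and the tRNA mt-Tp. A gene is called here where its adjusted p was under 0.05. Averaged over both sexes, 10 of the 16 were called lower with daily prednisone than with vehicle and 0 higher, against 7.47% of all tested genes called lower and 7.48% called higher. The 10 were mt-Rnr1, mt-Rnr2, mt-Co1, mt-Co2, mt-Atp6, mt-Nd3, mt-Nd4, mt-Nd4l, mt-Cytb and mt-Tp. The median log2 fold change over the 16 was -0.81, and over all tested genes 0.02. Of the 16 values 15 were negative, and mt-Atp8 stood at 0.13.

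Of the 10, mt-Rnr1, mt-Rnr2, mt-Co2, mt-Atp6, mt-Nd3 and mt-Tp (6 genes) were called in each of the 18 fits that leave out a library. Of these 6, mt-Co2, mt-Atp6 and mt-Nd3 belong to the 5 genes with few counts, with 0, 3 and 6 windows of their own. Whether such counts follow the level of the whole transcript was not tested. The other 4, mt-Nd4l, mt-Co1, mt-Cytb and mt-Nd4, had adjusted p of 0.0387, 0.0420, 0.0425 and 0.0490 and were called in 4 or 5 of those 18 fits. The count was 6 without vehicle male replicate 2 or 3, without any weekly male, without daily male replicate 1 or 2, without any vehicle female, or without daily female replicate 2 or 3, and it was 7 without daily female replicate 1. DESeq2 called 11 of the 16, against 17.3% of all tested genes. With a score of fat-cell markers, their mean log2 CPM, as a covariate in the edgeR model, 0 of the 16 and 0 of all genes were called, and the median over the 16 was -0.23.

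Fat-cell markers moved with the treatment. The 10 adipocyte markers (Adipoq, Plin1 and others), all of them detected, had 8 called higher over both sexes, against 7.48% of all tested genes. They summed to 515 to 1006 CPM in vehicle males and 1202 to 2058 in daily males, and to 908 to 992 CPM in vehicle females and 1391 to 4311 in daily females. Their mean log2 CPM, the score in the model, was 2.69 to 3.70 in vehicle males and 4.74 to 5.98 in daily males, and 3.55 to 3.83 in vehicle females and 5.46 to 7.44 in daily females. Since the scores do not overlap, the score and the treatment cannot be told apart in those groups. Weekly females had 1160 to 6870 CPM of the same markers. The 10 myofiber markers summed to 109624 to 196566 CPM in every library, so the labelled cell type was present throughout. Of the 5 blood markers, hemoglobins among them, 4 were called lower with daily prednisone over both sexes, against 7.47% of all tested genes, and the list summed to 68.0 to 122 CPM against 96.5 to 175 CPM with vehicle. The part of blood RNA in the mitochondrial result was not tested.

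The counts of the 2 rRNAs, which form the small (mt-Rnr1) and the large (mt-Rnr2) mitochondrial ribosomal subunit, were lower with daily prednisone. mt-Rnr1 (955 bases) read 2812, 3181 and 4233 CPM in vehicle males and 1769, 1777 and 2730 CPM in daily males. It read 3442, 3425 and 2231 CPM in vehicle females and 1182, 1146 and 1114 CPM in daily females. The daily values lay below the vehicle values in both sexes, and the daily females were the most uniform group, at 1148 ± 34.1 CPM (SD, n = 3). The log2 fold change was -1.05 ± 0.18 (SE) over both sexes, or 48.2% of the vehicle level, with an edgeR adjusted p of 0.00185. Weekly libraries read 2988, 3539 and 2250 CPM in males and 1877, 3084 and 1897 CPM in females, and overlapped with vehicle in both sexes.

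mt-Rnr2 (1582 bases) read 3460, 4626 and 5886 CPM in vehicle males and 2686, 2557 and 4019 CPM in daily males, which overlap. In females the values were 4359, 3462 and 3073 CPM with vehicle and 1619, 1772 and 1518 CPM with daily prednisone, with no overlap. Its log2 fold change over both sexes was -0.87 ± 0.19, with an edgeR adjusted p of 0.00615. In these polyA libraries mt-Rnr1 took 0.119% to 0.364% and mt-Rnr2 0.163% to 0.506% of all counts. Per kilobase, the median CPM of mt-Co1 was 20.2 times that of mt-Rnr1 and 24.7 times that of mt-Rnr2. Whether counts from polyA RNA follow the level of the whole rRNA was not tested.

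Among the complex I subunits, mt-Nd3 showed the clearest separation although its counts were low. It read 8.78, 10.8 and 17.5 CPM in vehicle males against 5.49, 5.85 and 5.48 CPM in daily males. In females it read 10.8, 15.2 and 10.2 CPM with vehicle against 4.07, 5.03 and 5.56 CPM with daily prednisone. No daily library of either sex reached its vehicle group. The log2 fold change was -1.21 ± 0.21 over both sexes, with an edgeR adjusted p of 0.00174, and weekly libraries (13.7, 11.9 and 10.9 CPM in males, 6.97, 15.6 and 8.25 CPM in females) overlapped with vehicle. All but 6 of its 299 windows occur in Gm28438, and where in the gene these counts came from was not tested.

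The abundant complex I subunits varied more between libraries. mt-Nd1 (957 bases) ranged over 15732 to 56936 CPM, mt-Nd2 (1038 bases) over 12099 to 38396 CPM, mt-Nd4 (1378 bases) over 9665 to 30435 CPM and mt-Nd5 (1824 bases) over 4286 to 30457 CPM. Their log2 fold changes with daily prednisone were -0.63 ± 0.24, -0.44 ± 0.25, -0.71 ± 0.23 and -0.78 ± 0.36 over both sexes, of which that of mt-Nd4 passed the test. mt-Nd4l stood at -0.90 ± 0.28, and passed, with 24.3 to 102 CPM and 3 windows of its own. mt-Nd6 (519 bases), from the other strand, stood at -0.91 ± 0.38 with an edgeR adjusted p of 0.122 and did not pass.

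mt-Cytb encodes cytochrome b, the only mitochondrially encoded subunit of complex III. It read 35698, 50499 and 73242 CPM in vehicle males and 32331, 30415 and 45584 CPM in daily males. In females it read 49304, 51745 and 54629 CPM with vehicle and 26574, 32289 and 25495 CPM with daily prednisone. The female groups stood apart and the male groups overlapped, and the log2 fold change over both sexes was -0.72 ± 0.23, with an edgeR adjusted p of 0.0425.

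Of complex IV, mt-Co1 read 66923, 94444 and 138362 CPM in vehicle males and 60336, 55641 and 79558 CPM in daily males. The female values were 82906, 92441 and 86747 CPM with vehicle and 40454, 53253 and 42480 CPM with daily prednisone. The pattern was that of mt-Cytb, with the female groups apart and the male groups overlapping, and a log2 fold change of -0.78 ± 0.25 (edgeR adjusted p of 0.0420). mt-Co2, at 2.24 to 15.3 CPM, fell by 1.10 on the log2 scale, with an SE of 0.26 and an edgeR adjusted p of 0.0109. It has 0 windows of its own. mt-Co3, at 2.11 to 7.91 CPM, had a log2 fold change of -0.66 ± 0.26 and did not pass (edgeR adjusted p of 0.104).

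The 2 ATP synthase subunits differed from each other. mt-Atp6 read 11.8, 12.5 and 21.2 CPM in vehicle males and 7.99, 7.10 and 9.60 CPM in daily males, and in females 11.9, 12.6 and 13.3 CPM with vehicle and 6.60, 6.29 and 7.67 CPM with daily prednisone. The groups did not overlap in either sex, and the log2 fold change was -0.88 ± 0.19 with an edgeR adjusted p of 0.00552. mt-Atp6 has 3 windows of its own. mt-Atp8 read 787, 1415 and 1897 CPM in vehicle males and 956, 989 and 3497 CPM in daily males, where replicate 3 was the highest of all 18 libraries. In females mt-Atp8 read 1107, 1116 and 1350 CPM with vehicle and 683, 1162 and 1387 CPM with daily prednisone, overlapping throughout. Its log2 fold change over both sexes was 0.13 ± 0.33, and it was -0.30 without daily male replicate 3 and -0.004 without vehicle male replicate 1.

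**Figure D3:**
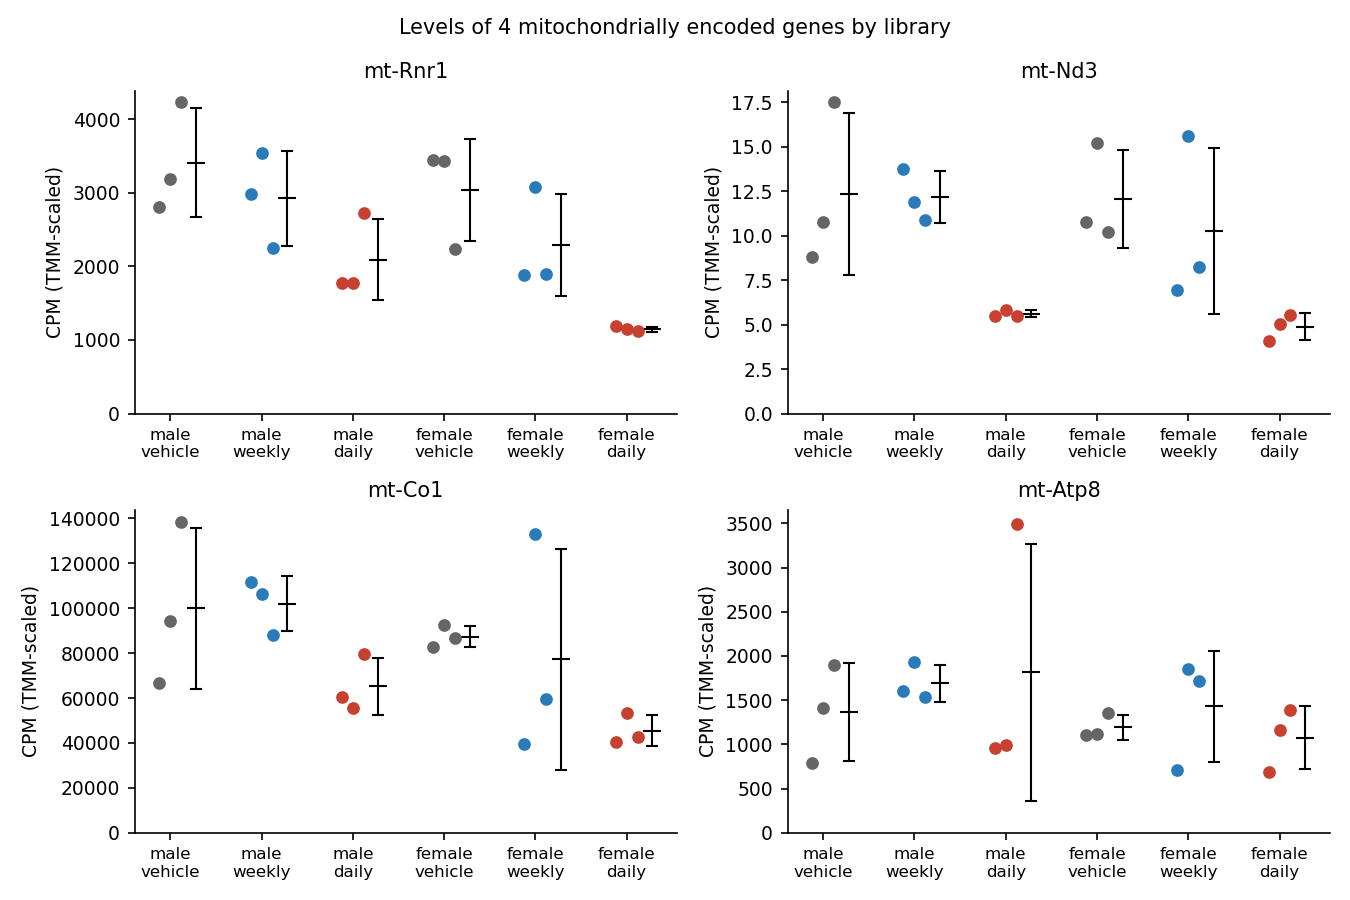
TMM-scaled CPM of mt-Rnr1, mt-Nd3, mt-Co1 and mt-Atp8 in each library (points, y axes starting at 0) by sex and treatment, with mean ± SD of 3. The daily points of mt-Rnr1 and mt-Nd3 lie below the vehicle points in both sexes, those of mt-Co1 only in females, and mt-Atp8 in daily male replicate 3 reaches 3497 CPM.

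Of the 22 tRNAs, which are cut out of the same precursors and carry no long polyA tail, mt-Tp alone passed the filter. mt-Tp, the proline tRNA, had 886 to 2153 counts per library, 19 tRNAs had 0 counts in every library, and mt-Tn and mt-Tc reached at most 2 and 3 counts. A count of 0 allows a share of up to 2.04e-05% to 2.86e-05% of a library, depending on its total. mt-Tp lies on the minus strand, opposite to all mRNAs but mt-Nd6, and is shown as annotated, chrM:15356-15422.
mt-Tp: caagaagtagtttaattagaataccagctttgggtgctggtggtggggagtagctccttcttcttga
It read 103, 136 and 224 CPM in vehicle males against 82.8, 86.5 and 139 CPM in daily males, and 148, 171 and 143 CPM in vehicle females against 68.0, 85.2 and 63.0 CPM in daily females. The female groups did not overlap and the male groups did, and its log2 fold change was -0.84 ± 0.21, with an edgeR adjusted p of 0.0133. Whether these reads came from the tRNA or from longer RNA across it was not tested. The RNAs chosen as lacking a polyA tail, such as Rn7sk and Rmrp, summed to at most 0.94 CPM in any library, with 6 of 10 detected. They read 0.49 to 0.94 CPM in daily libraries and 0.18 to 0.65 CPM in vehicle libraries.

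Within each sex fewer genes were called. In daily males 1 of 16 was called, mt-Nd3 (log2 fold change -1.13 ± 0.29, edgeR adjusted p of 0.0302), against 4.38% of all tested genes called lower, 2.07% called higher and 6.46% in all. Every daily male library lay below every vehicle male library for 5 of the 16, against 17.1% of all tested genes. These were mt-Rnr1, mt-Co2, mt-Atp6, mt-Nd3 and mt-Nd4l. DESeq2 called 2, mt-Nd3 and mt-Atp6, against 9.9% of all tested genes. The edgeR median over the 16 was -0.59, and -0.28 without vehicle male replicate 3, which read highest of all 18 libraries for 10 of the 16. The count was 0 without any of the 3 vehicle or any of the 3 daily males. Those fits called 92 to 414 of all tested genes. It was 2 without weekly female replicate 1 and 3 without weekly female replicate 2, against 1305 and 1076 of all tested genes. The weekly libraries are in neither group of this comparison, but leaving them out changed the scaling, the genes that passed the filter (13821 and 13839) and the shared estimate of spread.

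In daily females 1 of 16 was called, mt-Rnr1 (log2 fold change -1.40 ± 0.26, edgeR adjusted p of 0.0429), against 0.25% of all tested genes called lower, 0.132% called higher and 0.382% in all. Every daily female library lay below every vehicle female library for 15 of the 16, all but mt-Atp8, against 10.2% of all tested genes. Of the 16, 14 had an unadjusted p under 0.05, against 2354 of all 13596 tested genes. The median over the 16 was -0.92. The count was 4 and 6 without weekly female replicate 1 and 2, against 299 of 13821 and 263 of 13839 tested genes. It was 0 without any single male library, without vehicle female replicate 1 or 2, or without daily female replicate 2 or 3. Each of those fits called 0 or 1 of all tested genes, so the loss was not particular to the mitochondrial genes. DESeq2 called 6, against 3.87% of all tested genes.

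The difference of the daily effect between the sexes was tested by an interaction term. By edgeR it called 0 of the 16 genes, against 0% of all tested genes, and DESeq2 also called 0, against 0.0147%. None of the 16 had an unadjusted p below 0.05, against 638 of all 13596 tested genes. The median difference, female effect minus male effect, was -0.40, ranging from -0.70 without vehicle male replicate 3 to -0.18 without daily male replicate 3, and -0.20 without vehicle male replicate 1. The largest single values were those of mt-Rnr1 (-0.70 ± 0.36) and mt-Nd5 (-0.70 ± 0.73). The SEs, from 0.36 to 0.75, leave room for differences of that size. For weekly prednisone the same test called 0 by edgeR and by DESeq2, against 0% of all tested genes. Again 0 of the 16 had an unadjusted p below 0.05, against 357 of all 13596 tested genes, and the median difference was -0.08. That median ranged from -0.61 without weekly female replicate 2 to 0.21 without weekly female replicate 1, was -0.35 without vehicle male replicate 3, and was 0.15 without vehicle male replicate 1 and 0.03 without weekly female replicate 3.

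**Figure D4:**
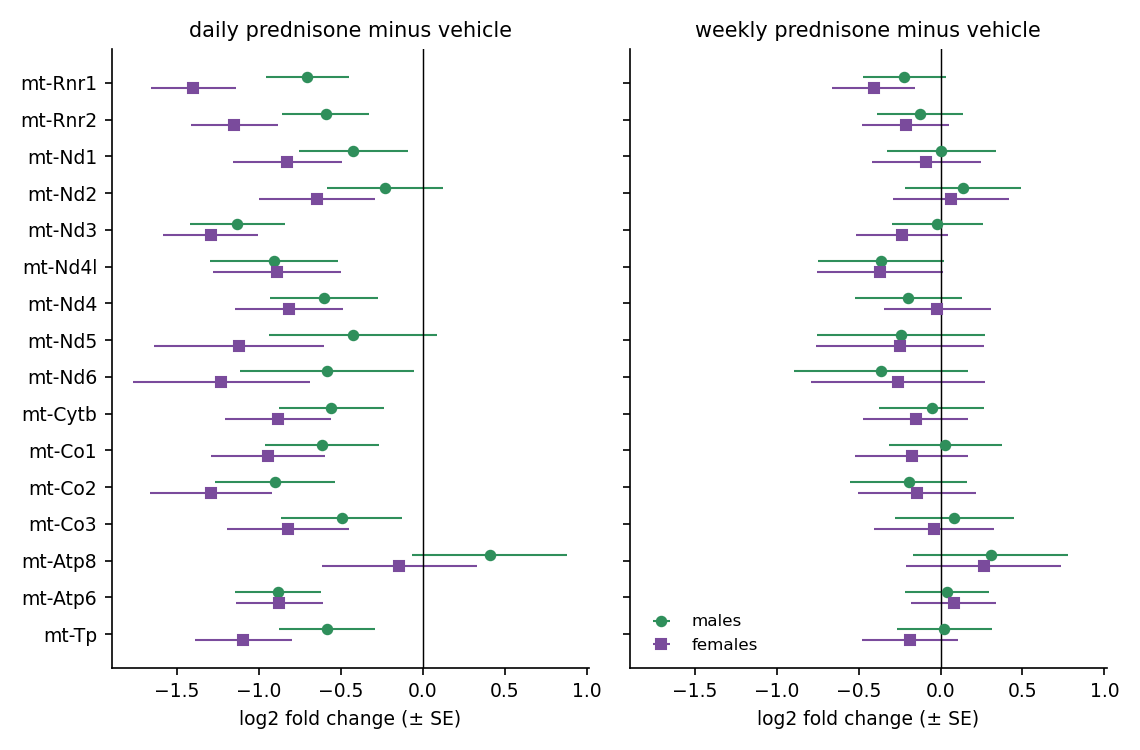
Log2 fold change against vehicle (x axis) with its SE for the 16 tested genes, for daily (left) and weekly (right) prednisone in males (circles) and females (squares). Daily values lie left of 0 but for mt-Atp8 in males, and weekly values scatter about 0.

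Weekly prednisone gave no call. In each sex edgeR called 0 of 16 genes, against 0% of all tested genes, and DESeq2 called 0, against 0.00736% in males and 1.12% in females. The count with an unadjusted p below 0.05 was also 0, against 777 of all 13596 tested genes in males and 1083 in females. For 0 of the 16 did all weekly libraries lie below or above all vehicle libraries, against 8.97% (below) and 7.76% (above) of all tested genes in males and 3.13% and 4.94% in females. The median over the 16 was -0.04 in males and -0.16 in females, with single values from -0.37 to 0.31 and from -0.41 to 0.26. The largest negative values were those of mt-Nd4l in males (-0.36 ± 0.39) and mt-Nd6 (-0.37 ± 0.53), and of mt-Rnr1 in females (-0.41 ± 0.25). Among weekly females replicate 2 read highest of all 18 libraries for 5 genes, mt-Nd2, mt-Nd4, mt-Nd5, mt-Nd6 and mt-Cytb. Replicate 1 read lowest of all for 4, mt-Co1, mt-Nd4l, mt-Nd5 and mt-Nd6. Without replicate 2, mt-Nd4l was called in weekly females and over both sexes, and the female median was -0.66. Without replicate 1 that median was 0.16, with 4 of 16 values negative, and without replicate 3 it was -0.01. In males the median ran from -0.29 without vehicle replicate 1 to 0.27 without vehicle replicate 3, with -0.11 and 0.05 without weekly replicates 1 and 3 and -0.10 without vehicle replicate 2. Summed slow-fiber markers read 2447, 238 and 206 CPM in the weekly females and 119 to 205 CPM in the vehicle females. The highest was replicate 1, the weekly female library with the lowest mitochondrial share, and the part of fiber type in the result was not tested.

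Daily and weekly prednisone were also compared directly. By the study's methods the last weekly dose came days before harvest, so time since the last dose cannot be told apart from the schedule here. In females 16 of 16 daily values were lower than weekly, with a median of -0.84, and 0 were called by edgeR, against 0% of all tested genes. Of the 16, 10 had an unadjusted p under 0.05, against 2401 of all 13596 tested genes. The smallest edgeR adjusted p was 0.0782, for mt-Rnr1, and DESeq2 called 5, against 3.77% of all tested genes. Every daily library lay below every weekly library for 6 of the 16 and above for 0, against 7.34% and 9.83% of all tested genes. The same-numbered libraries of these groups deviated together from their group means, with correlations of 0.50, 0.48 and 0.44 across genes. A fit added after seeing the data used that number as a block in these 6 libraries. It called 3 genes, mt-Rnr1, mt-Co2 and mt-Nd3, against 3.84% of all tested genes, and the median was -0.64. The deposited column names number each of these same-numbered libraries differently in the daily and the weekly group. The block was also chosen from the same libraries, so its calls are no separate support. Without weekly female replicate 1 the unblocked fit called 4, mt-Rnr1, mt-Rnr2, mt-Atp6 and mt-Nd3, with a median of -1.09. Without weekly female replicate 2 it called 0, with a median of -0.19 and 13 of 16 values negative. In males 15 of 16 were lower, with a median of -0.49. There edgeR called 0, against 0% of all tested genes, and 2 had an unadjusted p under 0.05, against 1829 of all 13596. DESeq2 called 2, mt-Nd3 and mt-Atp6, against 1.5% of all tested genes. Every daily male library lay below every weekly male library for 5 of the 16 and above for 0, against 12.7% and 11.9% of all tested genes. Between vehicle females and vehicle males edgeR called 0 of the 16, against 0.61% of all tested genes called lower in females, 0.154% called higher and 0.765% in all. DESeq2 called 0, against 1.73% of all tested genes, and 0 of the 16 had an unadjusted p below 0.05. The female libraries lay all below or all above the male ones for 0 of the 16, against 9.22% (below) and 9.66% (above) of all tested genes, and the median, female minus male, was -0.19. It was 0.11, with 1 of 16 values negative, without vehicle male replicate 3 and -0.41 without vehicle male replicate 1.

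The mRNAs with the largest shares of the mitochondrial mRNA pool varied less in share than the mitochondrial genes did in their part of the library. Over the 13 mRNAs, the highest share of a gene was 1.22 (mt-Nd1) to 3.28 (mt-Co2) times its lowest. For the part of the library taken by the 37 genes this was 3.11 times. mt-Co1 took 31.9% to 40.3% of the counts of the 13 mRNAs, mt-Cytb 18.2% to 23.7%, mt-Nd1 13.8% to 16.8% and mt-Nd2 7.78% to 12.98%. Within groups the SD of the log2 level of mt-Co1 was 0.45 and that of its log2 share 0.08. The complex I subunits together took 37.9% to 48.5%. These are shares of counts, not of molecules, since longer genes collect more reads and 5 genes were nearly unseen.

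Among the mRNAs with high counts, the shares of mt-Atp8, mt-Nd6 and mt-Nd5 varied most within groups, with SDs on the log2 scale of 0.41, 0.37 and 0.32. mt-Atp8 took 0.44%, 0.54% and 0.51% of the mRNA counts in vehicle males, and 0.57%, 0.65% and 1.40% in daily males. In females it took 0.47%, 0.48% and 0.53% with vehicle and 0.60%, 0.75% and 1.13% with daily prednisone. The daily shares lay above the vehicle shares in both sexes, and the weekly shares (0.57%, 0.73% and 0.61% in males, 0.61%, 0.50% and 0.99% in females) lay above them in males. The share of mt-Atp8 was singled out after its values were seen and was not tested. mt-Nd2 showed the same pattern. Its daily shares were 10.37% to 12.98% against 9.09% to 10.02% with vehicle in males, and 10.65% to 11.56% against 7.78% to 10.56% in females. Of the 13 mRNAs, 3 shares lay wholly above vehicle and 2 below in daily males, and 2 above and 0 below in daily females. In weekly males 2 lay above, mt-Nd2 and mt-Atp8, and 1 below, and in weekly females 0 lay above and 0 below. The shares of a library add up to 100%, so they are not independent of each other.

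mt-Nd5 and mt-Nd6, from opposite strands with overlapping ends, varied most from library to library, with within-group SDs of the log2 level of 0.72 and 0.75, and they varied together. mt-Nd5 took 3.70% to 9.04% and mt-Nd6 0.94% to 2.49% of the mRNA counts, while the ratio of their counts stayed between 0.22 and 0.30. Since the strand setting is not given, the counts of mt-Nd6 may include plus-strand RNA that runs across it, which was not tested. As a share of the 13 mRNAs, mt-Nd6 was 1.97%, 2.38% and 2.26% in vehicle males, 1.56%, 1.48% and 2.27% in weekly males, and 2.06%, 1.84% and 2.33% in daily males. In females the shares were 2.49%, 1.80% and 2.18% with vehicle, 0.94%, 2.27% and 1.99% with weekly prednisone, and 1.25%, 1.96% and 1.79% with daily prednisone. The groups overlapped, and the mean difference from vehicle over both sexes was -0.31 percentage points with daily (p = 0.11) and -0.43 with weekly prednisone (p = 0.12), in a two-sided exact permutation test over 400 relabellings within sex. Without daily male replicate 3 the daily difference was -0.37 points, with an exact permutation p of 0.045. Taken as a share of the complex I mRNAs alone, the daily difference was -0.91 points with an exact permutation p of 0.015.

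The ratio of mt-Rnr2 to mt-Rnr1 counts was 1.23, 1.45 and 1.39 in vehicle males and 1.52, 1.44 and 1.47 in daily males. In females it was 1.27, 1.01 and 1.38 with vehicle and 1.37, 1.55 and 1.36 with daily prednisone. The groups overlapped in both sexes. The mean log2 ratio was higher by 0.18 with daily prednisone, with an exact permutation p of 0.03, and by 0.14 with weekly prednisone, with p = 0.07 in the same exact test. Adjusted over the 4 permutation tests made on mt-Nd6 and this ratio, each p became 0.12, so none passed. The smallest p these relabellings can give is 0.005. Leaving out vehicle male replicate 1, daily male replicate 1 or 3, vehicle female replicate 2 or any daily female raised the daily p above 0.05.

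**Figure D5:**
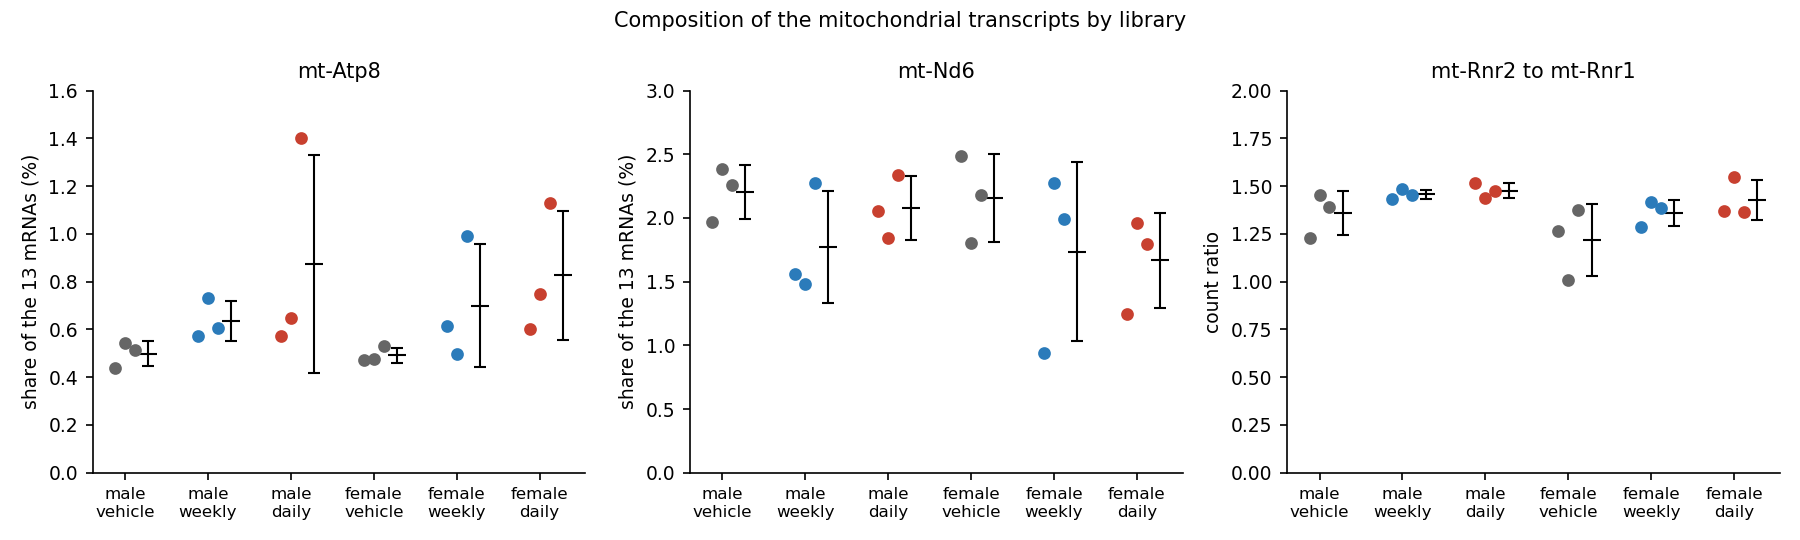
Share of mt-Atp8 (left) and mt-Nd6 (middle) in the counts of the 13 mitochondrial mRNAs (%), and the count ratio of mt-Rnr2 to mt-Rnr1 (right), in each library by sex and treatment, with mean ± SD of 3. mt-Atp8 shares with daily prednisone (0.57% to 1.40%) lie above those with vehicle (0.44% to 0.54%), while mt-Nd6 shares and rRNA ratios overlap between groups.

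The nuclear genes of the same respiratory complexes were lower as well. Of 71 tested genes for subunits of complexes I, III, IV and V, 56 were called lower with daily prednisone over both sexes and 0 higher, against 7.47% of all tested genes called lower and 7.48% higher, and their median stood at -0.62 (log2). In daily males 45 were called lower, against 4.38% of all tested genes, with a median of -0.76. In daily females 2 were called lower, against 0.25% of all tested genes, with a median of -0.45. All 71 values of the female effect minus the male effect were positive, with 0 called. Of the 16 mitochondrial values 14 were negative, also with 0 called, against 47.4% negative over all tested genes. Between vehicle females and males, 63 of the 71 and 16 of the 16 values were negative, against 46.6% over all tested genes. Without vehicle male replicate 3 the median over the 16 was 0.11. The genes share the same libraries, so these values are not independent of each other. By complex the extremes over both sexes were Ndufa2 (-1.09) and Ndufs1 (0.14) in complex I, Uqcrh (-0.81) and Uqcrc2 (0.02) in complex III, Cox8b (-0.99) and Cox7b (-0.51) in complex IV, and Atp5e (-1.07) and Atp5b (-0.05) in complex V. With weekly prednisone 0 of the 71 were called in either sex.

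Of 41 nuclear genes for mitochondrial transcription, RNA processing and replication, 40 were tested, and over both sexes 1 was called lower and 1 higher with daily prednisone, with a median of -0.08. Both shares lie below those over all tested genes, 7.47% and 7.48%. The gene called lower was Slirp, an RNA-binding protein that acts with Lrpprc to stabilize mitochondrial mRNAs (-0.69 ± 0.13, edgeR adjusted p of 0.00276). It was also called lower in daily males (-0.80 ± 0.18). The gene called higher was Polg2, the accessory subunit of the mitochondrial DNA polymerase (0.78 ± 0.23, edgeR adjusted p of 0.0298). Lrpprc itself stood at 0.09 ± 0.12, the polymerase Polrmt at 0.24 ± 0.12, Tfam, which packages mitochondrial DNA, at -0.18 ± 0.10, Tfb2m at 0.17 ± 0.14 and the elongation factor Tefm at -0.18 ± 0.14, none of which passed.

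The scaling bears on all these levels. Without TMM factors, dividing by library size alone, the median over all genes moved up by 0.23 on the log2 scale with daily prednisone over both sexes, and 11.3% of called genes were lower in place of 1016 of 2033. The 16 mitochondrial genes then had a median of -0.59, and 6 were called, all lower. Relative to the shifted median of all genes, 0.25, they stood about as far below as before. A change of scaling moves all genes nearly alike, so this gap is no check on it. mt-Atp8 in daily females changed sign, from -0.14 to 0.08. With the mitochondrial genes left out of the scaling, 10 were called and the median was -0.81.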

How the data were processed

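Per the labels and the study's methods, myofiber RNA was sequenced as polyA RNA, and the authors deposited raw read counts per gene for 18 libraries, aligned to mm10. The submitters' processing notes name TopHat2 2.1.0, Bowtie2 2.2.6, HTSeq and both mm10 and mm9. The coordinates match GENCODE M21 on mm10. Strand and multiple-mapping settings are not given in the sources used here. The members and all lists were chosen with earlier results of these data known.

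From the counts, edgeR 4.0.16 (R 4.3.3) fitted 6 group means after filterByExpr (minimum count 10) and TMM, with robust quasi-likelihood tests, Benjamini-Hochberg adjustment and a threshold of 0.05. The script was tested on simulated data. Alternatives were DESeq2 1.42.0, other scalings and filters, the compared groups alone, a replicate block, an adipocyte score as covariate, and leaving out each library. Nuclear copies were aligned with blastn 2.17.0. Named genes were all mRNAs, rRNAs and tRNAs passing the filter, 6 fixed and any called machinery genes, the extremes of each nuclear complex, and the chromosome 1 copies. Same-numbered libraries deviated together (all 3 correlations above 0.1) only between daily and weekly females. The number was therefore used there as a block in an added fit. This choice came from the same data. The labels do not give the numbers as pairs of animals, and the deposited column names number these libraries differently in the daily and the weekly group. The main fit has no block.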

Additional observations from a re-analysis of the deposited data

How the results depend on the processing

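The count of mitochondrial genes called with daily prednisone over both sexes, 10 as reported, was 11 with DESeq2, 12 with the compared groups alone, 6 without TMM factors, 6 with no filter on low counts, and 0 with the adipocyte score, ranging from 6 to 12 when each library was left out. In daily males (1) it was 2 with DESeq2, 2 with a minimum count of 50, 4 with the compared groups alone and 0 with the adipocyte score, ranging from 0 to 3. Over all tested genes these 4 settings called 1346 of 13596, 1143 of 10544, 1530 of 12618 and 21 of 13596. In daily females (1) it was 6 with DESeq2, 3 without TMM factors, 3 with a minimum count of 50, and 0 with the adipocyte score or the compared groups alone, ranging from 0 to 6. Over all tested genes DESeq2 called 526, the fit without TMM factors 361 and the minimum count of 50 198. The adipocyte score and the compared groups alone called 0 of all tested genes. The cause of these changes was not tested. Daily against weekly prednisone gave 2 calls in males and 5 in females with DESeq2, against 0, and from 0 to 4 in females and 0 in males when each library was left out. Weekly prednisone gave 0 to 1 in females and over both sexes, and 0 in males.

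With the replicate block in all groups, the calls with daily prednisone were 8 over both sexes, 1 in males and 0 in females. Over all 13596 tested genes it called 887 in males and 8 in females. That block changed no other call count of the mitochondrial genes. The block in daily and weekly females alone, added after seeing the data, gave 3 for daily against weekly females.

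mt-Nd2 turned to 0.15 and mt-Nd5 to 0.17 in daily males with the adipocyte score, and mt-Nd2 to 0.020 over both sexes. When each library was left out, mt-Nd2 in daily males ranged from -0.60 (without daily male replicate 3) to 0.021 (without vehicle male replicate 3). mt-Atp8 ranged from -0.46 (without daily male replicate 3) to 0.72 in daily males, from -0.37 to 0.10 (without daily female replicate 1) in daily females, where it was 0.076 without TMM factors, and over both sexes from -0.30 (without daily male replicate 3) to 0.29, with -0.0039 without vehicle male replicate 1.

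The mt-Nd6 share differed from vehicle by -0.40 to -0.20 points (daily) and -0.56 to -0.23 (weekly) when each library was left out, and by -0.91 (daily) among complex I mRNAs. The log2 rRNA ratio differed by 0.12 to 0.23 (daily) and 0.073 to 0.18 (weekly), and by 0.095 with medians (weekly, exact permutation p of 0.04). The female daily difference in share ranged from -10.7 to -7.40 points, and was -13.7 per 100 nuclear counts. With 3 libraries a group, differences of the size of the spread between libraries cannot be resolved, and the low counts of 5 mRNAs limit their precision.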
